A study of Mus musculus with 3 samples.

Results

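The genes of the major histocompatibility complex (MHC) and its helpers were described in the RNA held at chromatin in macrophages. They were chosen by name. Genes with a protein-coding transcript whose symbol starts with H2- were taken, and B2m, Tap1, Tap2, Tapbp, Cd74, Ciita and Nlrc5 were added. This gave 44 of 55536 annotated genes, 37 of them by the H2- symbol. As genes, 3 of the 44 (H2-T10, H2-Bl and H2-Ea-ps) are annotated as polymorphic pseudogenes and the others belong to the 22028 protein-coding genes. The cells were bone marrow-derived macrophages, that is, macrophages grown in culture from the marrow of C57BL/6J mice. They had received 100 ng/ml of lipid A, the part of bacterial lipopolysaccharide that TLR4 recognises, for 15 min. All 3 libraries belonged to this 1 group, and no unstimulated library was used here, so the values are levels and not responses. Their RNA was ribosomal RNA-depleted total RNA of the chromatin fraction. All carried the same donor label, each with its own sample label, and the spread between them may be technical. Starting RNA was 1 µg, 250 ng and 500 ng in replicates 1, 2 and 3.

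MHC class I molecules carry short peptides from proteins made inside the cell to the surface, where CD8+ T cells read them. Each is a heavy chain (H2-K, H2-D and the non-classical Q, T and M chains of the mouse) paired with the light chain B2m. Peptides enter the endoplasmic reticulum through the transporter TAP1-TAP2, and tapasin, the product of Tapbp, holds the empty molecule at it. Class II molecules carry peptides from endosomes to CD4+ T cells; their alpha and beta chains assemble on the invariant chain Cd74, and H2-M, with H2-O as its modulator, exchanges the last fragment of Cd74 for peptide. Nlrc5 and Ciita are the related transactivators of the class I and the class II genes. Neither binds DNA itself: both act through factors bound at the promoters. Resting macrophages carry class I molecules, and interferon gamma is the textbook inducer of Ciita and class II in them.

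The class I heavy chains are close relatives, which bears on how reads are divided among them. Coding sequences of the H2-K1 and H2-D1 models were identical at 91.4% of 1077 aligned bases, H2-K1 and H2-Q4 at 90.1%, H2-K1 and H2-T23 at 81.5%, and H2-K1 and H2-M3 at 71.6%. H2-T24 was the most distant of the 10 detected heavy chains from H2-K1, at 58.0%, and H2-T22 and H2-T10 were the closest pair of all, at 96.3%. Of 532 windows of 60 bases that aligned without a gap in 5 of these genes, the one with the fewest differences from H2-K1 lay in exon 4, which encodes the domain nearest the membrane. It is shown because a read from within it cannot be told apart between H2-K1, H2-D1 and H2-T23, which hold exactly the same letters there. In H2-K1 it lies at chr17:33997374-33997433 on the minus strand of GRCm38 (mm10). Capitals mark bases that differ from H2-K1.
H2-K1: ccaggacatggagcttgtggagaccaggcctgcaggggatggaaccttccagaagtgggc
H2-Q4: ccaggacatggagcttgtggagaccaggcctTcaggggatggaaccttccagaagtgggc
H2-M3: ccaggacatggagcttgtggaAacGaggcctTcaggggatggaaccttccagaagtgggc

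The window with the most differences lay in exon 3, which encodes part of the peptide-binding groove, at chr17:33999477-33999536 in H2-K1. It is shown because H2-D1, H2-T23 and H2-M3 can be told from H2-K1 there. H2-D1 (chr17:35263849-35263908) differed from H2-K1 at 12 of 60 bases, H2-Q4 (chr17:35380371-35380430) at 1, H2-T23 (chr17:36031844-36031903) at 17 and H2-M3 (chr17:37271008-37271067) at 25.
H2-K1: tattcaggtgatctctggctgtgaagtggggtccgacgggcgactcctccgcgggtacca
H2-D1: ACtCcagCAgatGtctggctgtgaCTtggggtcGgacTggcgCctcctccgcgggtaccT
H2-Q4: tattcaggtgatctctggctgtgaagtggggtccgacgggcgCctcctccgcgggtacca
H2-T23: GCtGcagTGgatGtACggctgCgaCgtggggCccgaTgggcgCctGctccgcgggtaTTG
H2-M3: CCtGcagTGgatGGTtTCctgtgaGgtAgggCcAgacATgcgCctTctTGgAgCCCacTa

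Over whole transcripts, the share of 31-base windows that also occur in a transcript of another gene, on either strand, was 0% for B2m, 0.579% for Nlrc5, 2.77% for Ciita, 22.8% for H2-K1 and 26.9% for H2-D1. It was 53.0% for H2-Q4, 51.8% for H2-Q6, 67.4% for H2-T22 and 64.2% for H2-T10. H2-Ke6, which lies among the MHC genes and encodes an enzyme of steroid and fatty acid metabolism, shared 76.1% with the overlapping locus Gm20427. The levels of these last 5 genes are uncertain for that reason. Neither use of strand nor the counting program is given in the sources used here. B2m, Tap1, Tap2, Tapbp, Ciita, Nlrc5, H2-DMa, H2-Eb1, H2-Oa, H2-Q4, H2-T10, H2-T22, H2-T23 and H2-T24 overlap an annotated gene on the opposite strand, and reads of both strands may have been counted together.

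Levels are given in TPM, transcripts per 1000000, which is per length of the annotated models. Comparisons between genes therefore also depend on which models are annotated. H2-K1 has 16, of which 7 have a retained intron, and B2m has 1 without. Of the 44 members, 23 reached 1 TPM in each of the 3 libraries, where 42.4% of all protein-coding genes did. A further 6 had at least 1 count but a mean below 1 TPM, and 15 had no count in any library. Of all protein-coding genes 30.2% had none. The expected counts, which need not be whole because shared reads are split, summed to 10974934, 21376404 and 14376665 per library. A count of 0 allows up to 3 counts, which over 1 kb of transcript would be 0.221, 0.0948 and 0.191 TPM. Floors and intervals here cover counting error only. Protein-coding genes held 23.9%, 16.7% and 25.3% of the TPM of replicates 1, 2 and 3, and most members read lowest in replicate 2 on this scale. The members made up 0.199%, 0.210% and 0.198% of the counts of protein-coding genes.

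The cells had the markers of their label. All 8 macrophage markers (Adgre1, Csf1r, Itgam, Cd14, Cd68, Mertk, Fcgr1 and Lyz2) reached 1 TPM in each library, with summed levels of 502 to 896 TPM. In the gene table none of 7 B cell markers, 8 dendritic cell markers or 7 T and NK cell markers did. Cd79b and Pax5 of the B cells, and Cd3e and Cd209a of the others, had no count in any library of it. Summed levels were 0.790 to 1.94 TPM for the B cell list, 1.27 to 3.40 TPM for the dendritic list and 0.630 to 1.82 TPM for the T and NK list, and 3, 1 and 4 of their genes had no count. Of these lists, Cd22 and Zbtb46 alone had a mean of at least 1 TPM in the gene table. In the second quantification, a separate set of deposited transcript tables, Cd3d was at 16.1 ± 4.35 TPM (SD, n = 3). Zbtb46, Cd22, Ebf1, Siglech, Cd247, Cd3g and Clec9a had means of 3.06, 2.99, 2.88, 2.38, 1.32, 1.28 and 1.11 TPM there. The other markers of these lists stayed below 1 TPM on average. The libraries are bulk samples, so fewer cells of a type and less RNA per cell cannot be told apart.

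The classical class I heavy chains stood at the top of the members. H2-K1 (chr17:33996017-34000347, minus strand) was at 374, 179.8 and 375 TPM in replicates 1, 2 and 3. H2-D1 (chr17:35262730-35267499, plus strand) was at 341, 279 and 307 TPM. Among protein-coding genes H2-K1 stood at percentiles of 99.6 to 99.9 in the 3 libraries. H2-K1 and H2-D1 did not differ beyond their spread: H2-K1 was the higher in replicates 1 and 3 and H2-D1 in replicate 2, with ratios of 1.10, 0.644 and 1.22. H2-K1 and H2-D1 together held 47.6%, 42.3% and 43.1% of all counts of the 44 members.

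B2m (chr2:122147686-122153083), the light chain that every class I heavy chain needs, was lower at 46.2, 21.2 and 39.8 TPM. In each library it lay far below both heavy chains, and no library of B2m reached any library of H2-K1 or H2-D1. The summed level of H2-K1 and H2-D1 was 15.5, 21.7 and 17.2 times that of B2m, on average 18.1 ± 3.20 (SD, n = 3). The second quantification, a separate set of deposited transcript tables, gave 5.75, 8.50 and 5.86 times. The direction was the same in all 3 libraries of both, and the size was not. Models with a retained intron held a mean of 72.5% of the TPM of H2-K1 and 41.2% of that of H2-D1, and B2m has no such model. Their part in the ratio was not tested.

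**Figure D1:**
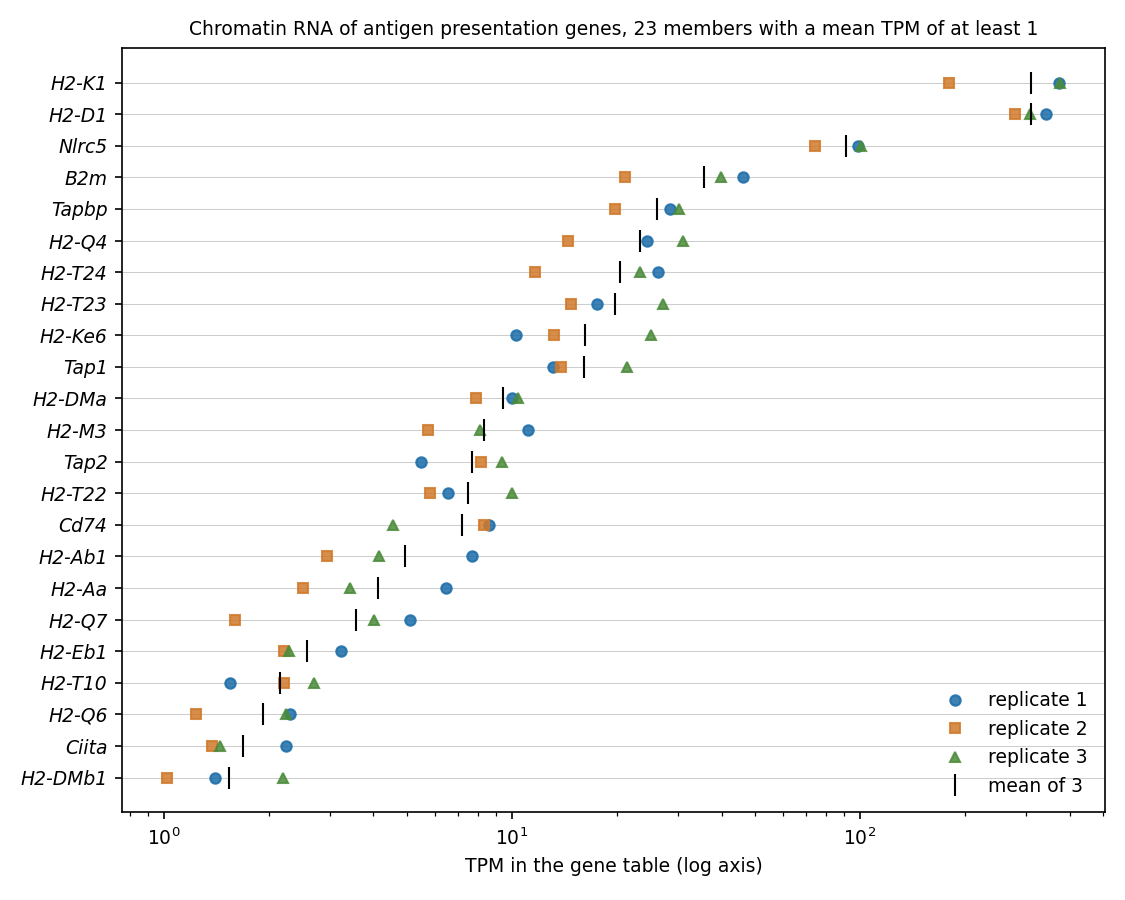
Level of each member with a mean of at least 1 TPM in the gene table, on a log axis. Each symbol is 1 library and the black stroke is the mean of 3. H2-K1 and H2-D1 lie above 179 TPM in every library, Nlrc5 lies between 74.1 and 100.3 TPM, and the class II chains and Ciita lie below 8 TPM.

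The peptide loading genes were all present. Tapbp, at chr17:33915899-33929292, stood at 28.4, 19.8 and 30.3 TPM, Tap1 at 13.1, 13.8 and 21.4 TPM, and Tap2 at 5.49, 8.13 and 9.37 TPM. Tap1 was above Tap2 in each library, and Tapbp above Tap1. The ranges of Tapbp and B2m overlapped, as did those of Tapbp and Tap1.

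Of all protein-coding genes, 42.4% reached 1 TPM in each library and 30.2% had no count in any. Of the 24 non-classical class I genes, 8 reached 1 TPM in each library and 13 had no count. The highest were H2-Q4 at 24.4, 14.5 and 31 TPM, H2-T24 at 26.4, 11.6 and 23.4 TPM, and H2-T23 at 17.6, 14.8 and 27.2 TPM. Their ranges overlapped, and each stood far below H2-D1 in each library. H2-T23 encodes Qa-1, which presents leader peptides of other class I chains to the NK cell receptor CD94/NKG2A. H2-M3, which presents formylated peptides of bacteria, stood at 11.1, 5.75 and 8.08 TPM. H2-T22 and H2-T10, whose products are seen by some gamma-delta T cells, were at 6.54, 5.81 and 10 TPM and at 1.55, 2.21 and 2.70 TPM. H2-T22 was the higher in each library, although nearly all of their coding sequence is shared. H2-T10 is annotated as a polymorphic pseudogene, and models of the protein-coding class held a mean of 6.64% of its TPM. H2-Q7 and H2-Q6 encode the Qa-2 molecules. H2-Q7 stood at 5.10, 1.60 and 4.01 TPM and H2-Q6 at 2.31, 1.24 and 2.25 TPM, and their ranges overlapped.

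Most of the non-classical genes without a count lay together. The M block of chromosome 17, from H2-M10.2 to H2-M5 (chr17:36284227-36989537), is 705 kb long and holds 10 members. Of these, 9 had no count, and H2-M5 had 1 count in 1 library. Other protein-coding genes in the block were mixed. Of 10, 3 reached 1 TPM in each library, where 42.4% of all protein-coding genes did, and 4 had no count, where 30.2% of all had none. Trim26 was the highest at 45.7, 36 and 62.7 TPM. The H2-M10 genes are known for their expression in the vomeronasal organ. H2-Q1, H2-Q2, H2-T3 and H2-Bl were the other non-classical genes without a count, and H2-Q10, a secreted class I chain of the liver, had 1.46, 0.50 and 0.68 TPM. H2-M2 was at 0.55, 0.16 and 0.15 TPM, from 10, 6 and 3 counts.

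**Figure D2:**
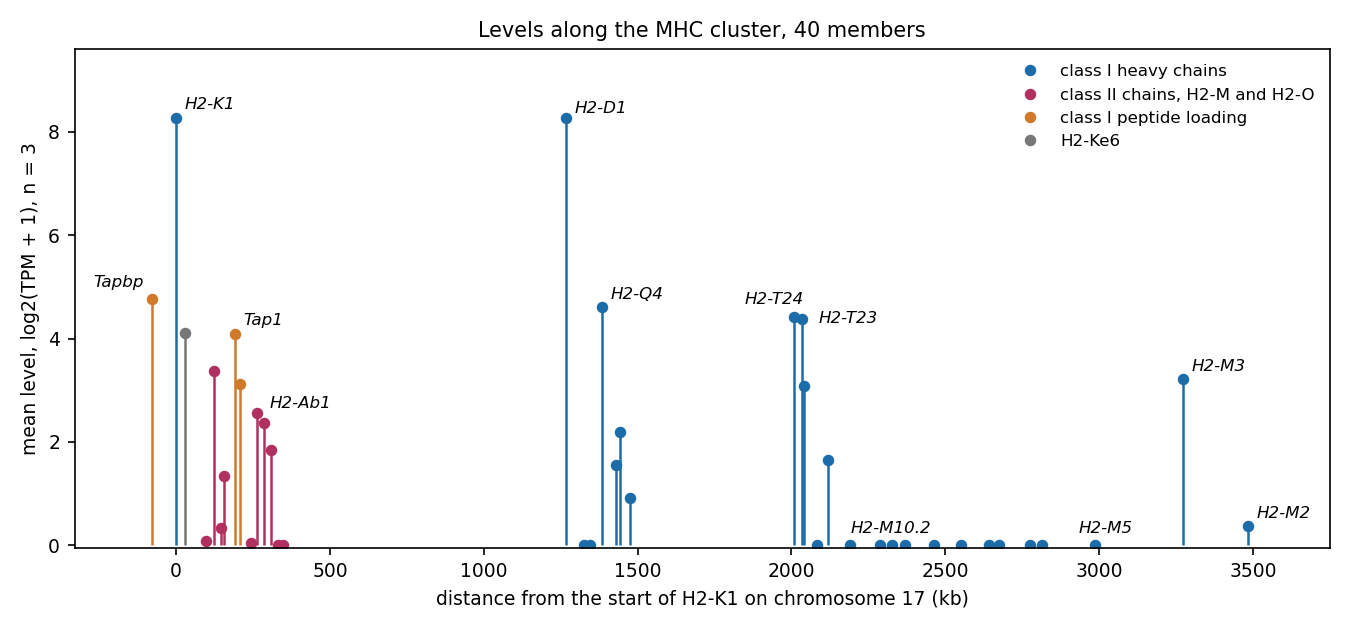
Mean level of the 40 members on chromosome 17, as log2(TPM + 1), against distance from the start of H2-K1 in kb. H2-K1 and H2-D1 form the highest points, the class II genes form a low group near 250 kb, and the row of points at the axis before H2-M3 is the M block.

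Class II chains were present at far lower levels. H2-Ab1 (chr17:34257689-34269419), the beta chain of the I-A molecule, was at 7.70, 2.95 and 4.15 TPM, from 63, 56 and 40 counts. Its partner H2-Aa (chr17:34282744-34287823) was at 6.48, 2.51 and 3.42 TPM. H2-Eb1 was at 3.22, 2.21 and 2.29 TPM. H2-Ea-ps, the E alpha gene, which is defective in this strain, had no count, and neither had H2-Eb2. The ratio of H2-Aa to H2-Ab1 was 0.842, 0.851 and 0.824. H2-K1 and H2-D1 together were 50.4, 84.0 and 90.1 times as high as H2-Aa and H2-Ab1 together, or 30.2, 49.7 and 47.0 times in the second quantification.

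Cd74 (chr18:60803848-60812652) was at 8.61, 8.34 and 4.55 TPM, from 98, 192 and 61 counts, and was lowest in replicate 3. H2-DMa, the alpha chain of H2-M, was at 10, 7.89 and 10.39 TPM, from 43, 95 and 60 counts. H2-DMb1, a beta chain of it, was at 1.40, 1.02 and 2.20 TPM, with 31.4% of its windows shared with H2-DMb2. H2-DMb2 was lower, at a mean of 0.263 ± 0.0208 TPM (SD, n = 3). The H2-O chains were near the floor: H2-Oa had 1 count in each library and H2-Ob 0, 1 and 1. Processed-transcript models held a mean of 90.3% of the TPM of H2-DMa, and coding models 9.54%. H2-DMa had the highest mean of the 6 genes of class II peptide loading in the gene table, and its range overlapped that of Cd74. The second quantification turned this order, with Cd74 at 34.7 ± 18.4 and H2-DMa at 15.2 ± 4.08 TPM (SD, n = 3), and H2-Ob above H2-DMa on average. The median log2(TPM + 1) of H2-K1, H2-D1 and B2m was above that of H2-Aa, H2-Ab1, H2-Eb1 and Cd74 by 5.41, 5.60 and 6.01, a mean difference of 5.67 ± 0.31 (SD, n = 3). All 3 libraries had this direction. With 3 libraries an exact two-sided sign-flip test cannot go below 0.25, so no p-value is given.

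The transactivators differed in the same direction as their classes. Nlrc5 (chr8:94434356-94527272) stood at 98.8, 74.1 and 100.3 TPM and was the third of all members. In the gene table each of its libraries was below every library of H2-K1 and H2-D1 and above every library of B2m. In the second quantification Nlrc5 was at 117, 79.4 and 105.6 TPM and B2m at 128.8, 47.5 and 99.9 TPM, so their ranges overlapped and B2m was the higher in replicate 1. Ciita (chr16:10480059-10528418) stood at 2.25, 1.38 and 1.45 TPM, from 95, 158 and 88 counts. Nlrc5 was 43.9, 53.7 and 69.2 times as high, or 27.6, 43.4 and 37.1 times in the second quantification. On the log2(TPM + 1) scale the difference was 5.10 ± 0.24 (SD, n = 3).

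The promoters of the main genes are shown because elements just before the start are known to control them: interferon and kB elements in class I genes, and the Y box, with the X box, in both classes. RefSeq promoters (GRCm38.p6, 250 bases before to 50 after a start) matched 34 of the 44 members. Below are the 200 bases before the start, 5′ to 3′, with motif matches in capitals, for H2-K1 (chr17:34000334-34000533, minus strand, the downstream one of 2 starts), H2-D1 (chr17:35262894-35263093), B2m (chr2:122147487-122147686) and H2-Aa (chr17:34287824-34288023, minus strand).
H2-K1: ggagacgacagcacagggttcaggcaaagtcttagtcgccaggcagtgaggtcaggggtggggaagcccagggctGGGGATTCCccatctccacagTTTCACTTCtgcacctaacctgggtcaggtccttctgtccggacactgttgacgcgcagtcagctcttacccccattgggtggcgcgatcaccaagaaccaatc
H2-D1: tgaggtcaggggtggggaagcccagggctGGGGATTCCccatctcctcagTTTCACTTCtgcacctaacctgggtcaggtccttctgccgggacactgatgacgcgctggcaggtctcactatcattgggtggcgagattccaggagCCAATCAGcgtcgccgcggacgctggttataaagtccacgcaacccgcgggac
B2m: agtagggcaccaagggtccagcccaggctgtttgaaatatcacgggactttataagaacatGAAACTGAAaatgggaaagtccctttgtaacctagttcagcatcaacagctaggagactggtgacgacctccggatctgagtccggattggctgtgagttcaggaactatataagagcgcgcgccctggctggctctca
H2-Aa: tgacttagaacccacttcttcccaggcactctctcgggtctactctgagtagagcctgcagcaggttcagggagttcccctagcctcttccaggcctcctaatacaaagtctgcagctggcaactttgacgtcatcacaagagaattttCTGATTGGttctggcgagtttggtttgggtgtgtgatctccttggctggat

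Matches were sought on both strands of the 300-base promoters. Any match in Cd74 was left out of the member counts below, so those counts say nothing of Cd74. The 34 and the shares of all promoters were taken without this exclusion. H2-K1 and H2-D1 share the run GGGGATTCC, the kB letters of the H2-K gene. It begins 125 bases before this start of H2-K1 and 171 bases before that of H2-D1. The interferon element letters TTTCACTTC follow at 104 and 150 bases. The kB letters occurred in 4 of 34 members (H2-D1, H2-K1, H2-Q6 and H2-Q7) and in 0.25% of 32851 promoters. The interferon letters occurred in 7 of 34 (H2-D1, H2-K1, H2-M3, H2-Q10, H2-Q4, H2-Q6 and H2-Q7) and in 0.505% of all. H2-Q6 and H2-Q7, which hold both runs, stood far below H2-K1 in each library. The Y-box core CTGATTGG, a binding sequence of NF-Y, was in 18 of 34 members and 4.10% of all promoters. It begins 51 bases before H2-Aa and, as its reverse complement, 53 bases before H2-D1, and in H2-K1 it crosses the start printed above. Of the genes with it, H2-M10.1, H2-M10.3, H2-M10.4, H2-M10.5, H2-M10.6, H2-M1, H2-M9, H2-M11 and H2-Eb2 had no count. The paired letters GAAANNGAA were in B2m, H2-T22 and H2-T23, 3 of 34 members, and in 8.56% of all promoters. The letters AGCAACAG, one form of an X box, were in none of the members counted, which leave out Cd74, and in 2.26% of all promoters. Such matches describe letters and not binding.

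The isoform table divides each gene's TPM among its annotated transcript models, and chromatin RNA holds unspliced RNA that can fall to models with a retained intron. Of 19 members with such a model and a mean of at least 1 TPM, 8 had a mean retained-intron share of at least 50%, where 45.9% of 6506 protein-coding genes did. The median share was 41.2% for the members and 47.6% for all, so as a set the members were near the background. They differed widely among themselves. Which genes passed 50% depended on the quantification: 8 passed in each, and 5 of them were the same genes. Tap2, H2-Aa and H2-Eb1 passed here only, and H2-Ke6, Cd74 and H2-T10 in the second quantification only. Tap2 was the highest here, with 95.1%, 91.9% and 90.5% in the 3 libraries, nearly all in 1 model, Tap2-202, and had a mean of 45.5% in the second quantification. H2-Q7 had 89.1 ± 5.09%, H2-Ab1 86.4 ± 8.72%, H2-T23 78.3 ± 8.32% and Tap1 76.0 ± 15.0% (SD, n = 3).

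H2-K1 and H2-D1 differed in this measure. H2-K1 had 78.0%, 64.6% and 75.0% in retained-intron models and H2-D1 50.8%, 35.0% and 37.8%, and no library of H2-D1 reached one of H2-K1. By expected counts the means were 69.8% and 25.8%, and in the second quantification 65.9% and 40.4%. H2-K1 has 7 such models among 16 and H2-D1 has 1 among 4. The part of the annotation in this difference was not tested. H2-D1-204 was the model that held this share of H2-D1, and H2-D1-202 and H2-D1-203, both coding, held most of the rest. Among class II genes, H2-Eb1 was at 67.8 ± 7.31%, H2-Aa at 61.8 ± 11.3% and Cd74 at 40 ± 13.5% (SD, n = 3). The second quantification turned this order, with means of 38.7% for H2-Eb1, 43.2% for H2-Aa and 68.0% for Cd74, and by expected counts Cd74 was at 22.6% and H2-Aa at 87.1%. Nlrc5 was at 24.7 ± 5.78%, and its largest model in each of replicates 2 and 3 was the coding Nlrc5-207, with 24.3%, 43.1% and 33.9% of the gene. In replicate 1 the processed transcript Nlrc5-208 was larger, at 25.4%. Ciita was at 18.1 ± 5.76%, with the coding models Ciita-201 and Ciita-204 as its largest. B2m has 1 annotated model in these tables, and H2-T24, H2-M3 and H2-Q6 also had no retained-intron share. For H2-DMa the largest model was the processed transcript H2-DMa-203, with 66.3%, 48.8% and 54.8%. In the second quantification H2-DMa-203 at a mean of 5.38 TPM and H2-DMa-204 at 5.46 TPM were alike. Replicate 2, the deepest library, had the lowest retained-intron share for 14 of the 19 members, H2-DMa by a tie, and for 53.1% of all 6506 genes.

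**Figure D3:**
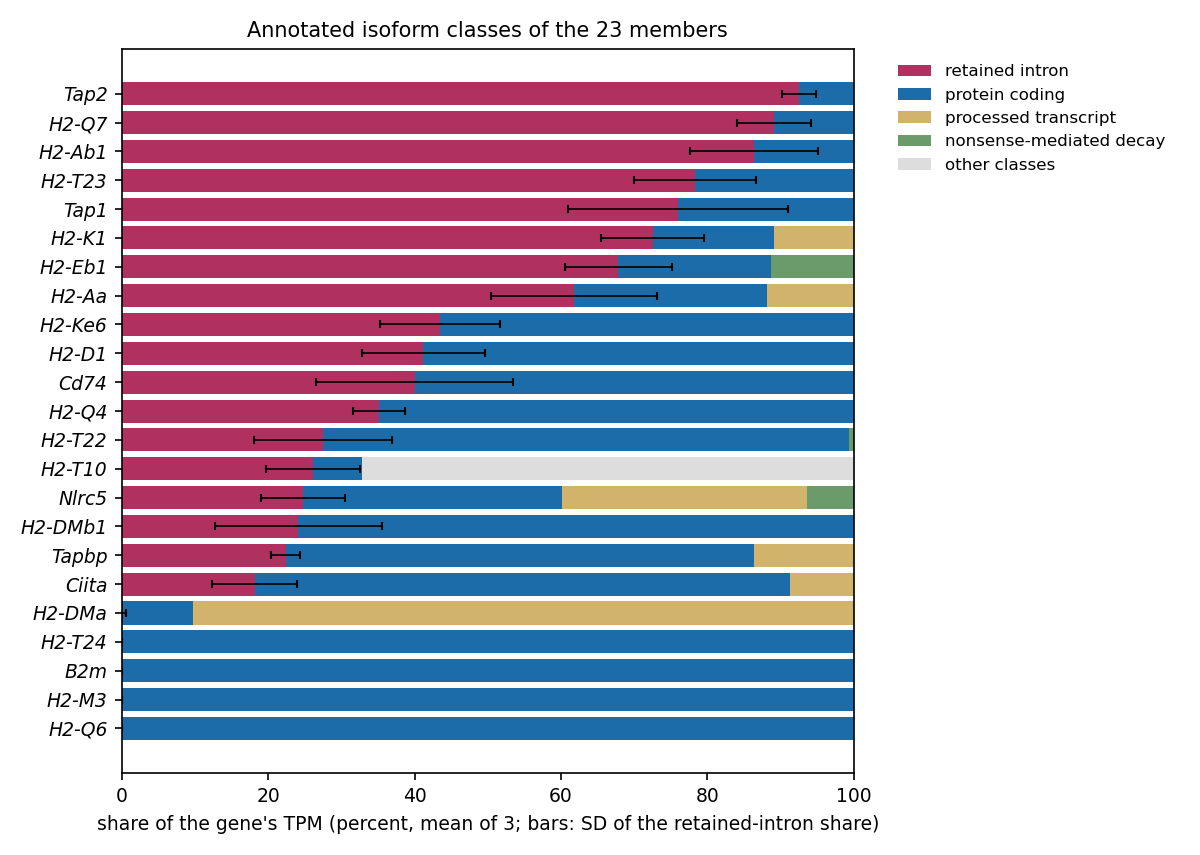
Share of each gene's TPM by annotated transcript class, in percent, as the mean of 3 libraries. Black bars give the SD of the retained-intron share. Tap2 is at the top with 92.5%, H2-K1 is above H2-D1, and B2m, H2-T24, H2-M3 and H2-Q6 have none.

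Differences between libraries were read after TPM was scaled to a sum of 1000000 over protein-coding genes in each library. The SD of log2(scaled TPM + 1) over the 3 libraries had a median of 0.30 over the 23 members and 0.29 over 10251 expressed protein-coding genes. It was above the background's median for 13 of 23 members, where 50% of genes are above it by definition. Tapbp was the steadiest member, at 119, 119 and 119.6 scaled TPM. Nlrc5 followed, at 413, 445 and 396 scaled TPM with an SD of 0.08, and H2-DMa with an SD of 0.11.

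Cd74 varied most. It was at 36 scaled TPM in replicate 1 (exact Poisson 95% interval of its counts 29.3 to 43.9), 50 in replicate 2 (43.2 to 57.6) and 18.0 in replicate 3 (13.8 to 23.1). Replicate 3 lay below the intervals of both others. The intervals do not cover how reads are divided among models. The retained-intron model Cd74-205 stood at 2.31, 3.47 and 0 TPM, unscaled, in replicates 1, 2 and 3. Its part in the spread of Cd74 was not tested. H2-Aa was at 27.1 (23.5 to 31.2), 15.1 (12.7 to 17.7) and 13.5 (11.2 to 16.2) scaled TPM, and H2-Ab1 at 32.2 (24.8 to 41.2), 17.7 (13.4 to 23) and 16.4 (11.7 to 22.3). Both I-A chains were high in replicate 1 and had overlapping intervals in replicates 2 and 3. H2-Eb1 was at 13.5 (9.33 to 18.8), 13.3 (9.81 to 17.5) and 9.05 (5.86 to 13.4), and its intervals all overlapped. In the second quantification Cd74 was at 124.8, 80.4 and 66.6 scaled TPM, H2-Aa at 26.1, 13.8 and 13.6 and H2-Ab1 at 29.0, 17.4 and 16.4. There Cd74 was highest in replicate 1, as both I-A chains were, so its peak in replicate 2 was seen in the gene table only. The summed scaled TPM of the dendritic markers was 14.2, 7.62 and 9.25 in replicates 1, 2 and 3, and that of the B cell markers 5.78, 4.74 and 7.66. Replicate 1 also had the most starting RNA. Their part in the class II levels was not tested.

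Among the class I genes the order of the libraries differed from gene to gene. H2-K1 was at 1564, 1079 and 1483 scaled TPM and H2-D1 at 1428, 1675 and 1211, so H2-K1 was lowest where H2-D1 was highest. B2m was at 193, 127 and 157 scaled TPM and had the order of H2-K1. Tap1 at 54.9, 82.9 and 84.5 and Tap2 at 23, 48.8 and 37.0 were both lowest in replicate 1, as were H2-T23, H2-T22, H2-T10 and H2-Ke6. By library, 10, 6 and 7 of the 23 members were highest in replicates 1, 2 and 3 (43.5%, 26.1% and 30.4%), against 35.2%, 31.9% and 32.9% of all genes. Lowest were 7, 7 and 9 (30.4%, 30.4% and 39.1%), against 40.6%, 46.9% and 12.4% of all genes.

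**Figure D4:**
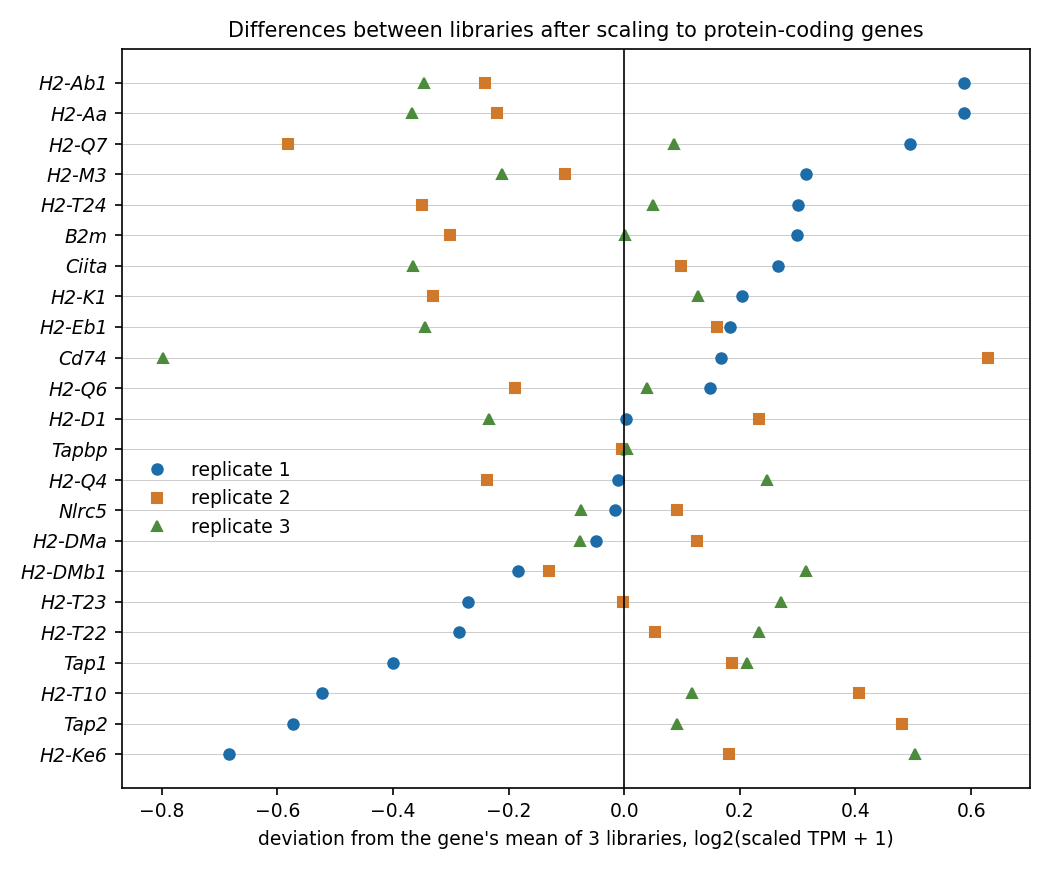
Deviation of each library from the gene's mean of 3, in log2(scaled TPM + 1), for the 23 members. Genes are ordered by replicate 1, from H2-Ab1 and H2-Aa (0.59 above the mean) to H2-Ke6. Cd74 spans the widest range, from -0.80 in replicate 3 to 0.63 in replicate 2.

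Both quantifications could be compared for 28 members with a mean of at least 1 TPM in either, each scaled to protein-coding genes. In the second quantification 7 members were at least 2-fold higher, where 22.9% of 12922 genes were, and 0 were at least 2-fold lower, where 0.735% were. The median ratio was 1.03 for the members and 1.06 for all genes. The heavy chains at the top were lower there, H2-K1 at 0.533 and H2-D1 at 0.562 times its gene table level. Nlrc5 was at 0.655 times, while Cd74 was 2.61-fold and B2m 1.49-fold higher. Without the scaling the tables stood closer for these: H2-K1 had means of 309.6 TPM in the gene table and 282 TPM in the second quantification, H2-D1 309 and 295 TPM, and Nlrc5 91.1 and 100.7 TPM, where Nlrc5 was the higher in the second. H2-Q10, with 30.3% of its windows shared, was 7.55-fold higher, and H2-DMb2, H2-M2 and H2-Q7 were 3.36-fold, 2.70-fold and 2.15-fold higher. H2-Q10 rested on the retained-intron model H2-Q10-203 in both. H2-Bl, listed at 0 in the gene table, was at 2.60, 1.34 and 3.14 TPM in the second quantification.

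H2-Ob had the widest gap. It had 0, 1 and 1 counts in the gene table, and 77.3, 8.90 and 29.8 TPM from 1151, 360 and 603 counts in the second quantification. There nearly all of it fell to 1 retained-intron model, H2-Ob-207, at 77.2, 8.82 and 29.8 TPM, and its 3 coding models stood at 0. None of the windows of H2-Ob is shared with another gene, and no annotated gene overlaps it on either strand. What makes the tables differ here was not tested.

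**Figure D5:**
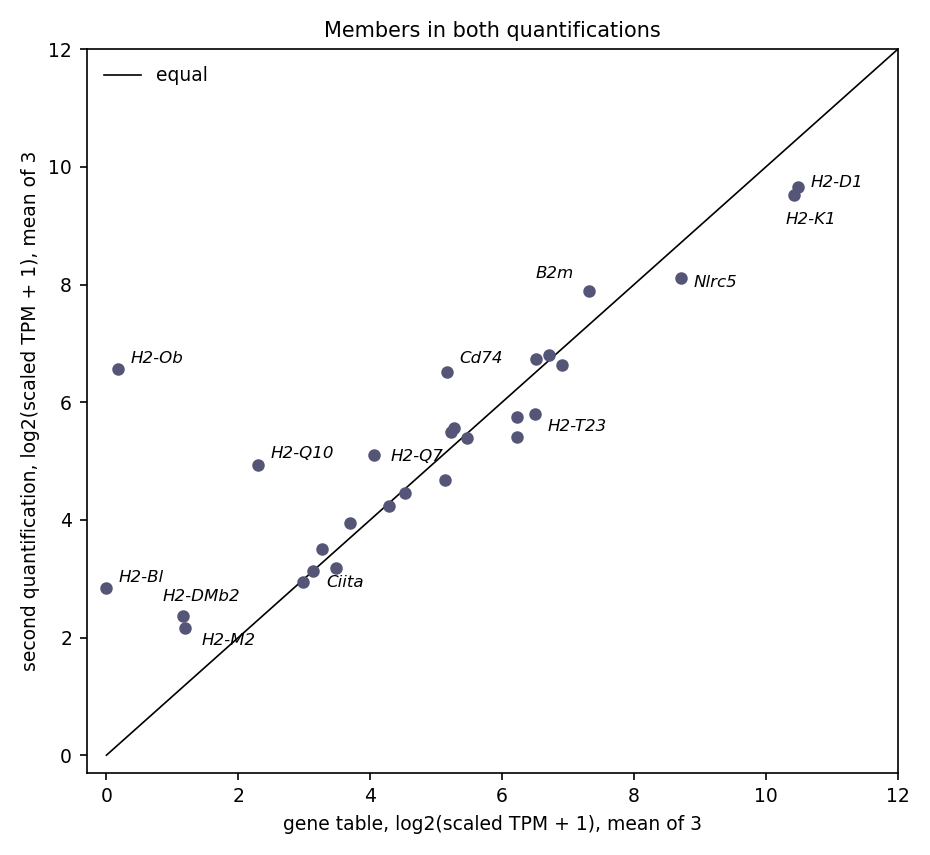
Mean level of 28 members in the second quantification against the gene table, each as log2(scaled TPM + 1), with the line of equal values. H2-K1, H2-D1 and Nlrc5 lie below the line, and H2-Ob, H2-Bl, H2-Q10 and Cd74 lie above it.

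Genes that work with the members were read from 7 lists of 50 genes. Of these, 43 reached 1 TPM in each library, where 42.4% of all protein-coding genes did. All 6 genes of the immunoproteasome and its activator did, with Psme2 at 33.4 ± 1.63, Psme1 at 24.3 ± 4.74 and Psmb10 at 11.1 ± 5.29 TPM as the highest and Psmb8 at 4.04 ± 1.86 TPM as the lowest (SD, n = 3). These make or open the proteasome form that cuts peptides for class I. Psmb8 and Psmb9 lie in the class II block beside Tap1 and Tap2. Of 6 helpers of class I folding, 5 did: the chaperones Hspa5 at 69.4 ± 14.9, Calr at 68.5 ± 1.16 and Canx at 31.5 ± 4.99 TPM led, and Tapbpl, a relative of tapasin, was lowest at 1.59 ± 0.755 TPM.

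All 7 genes of class II processing reached 1 TPM in each library, although the class II chains were low. The lysosomal proteases Ctsb at 508 ± 74.8, Lgmn at 129 ± 12.3 and Ctss at 55.6 ± 7.44 TPM led, and the thiol reductase Ifi30 was lowest at 1.33 ± 0.135 TPM (SD, n = 3). The factors that bind MHC promoters were present in 6 of 7 cases. Nfya, a subunit of NF-Y, was at 56.2 ± 12.4, Creb1 at 32.9 ± 15.9 and Rfx5 at 8.13 ± 2.17 TPM, and Rfxap was lowest at 1.82 ± 1.0 TPM. Of 9 MHC-like genes outside the H2- names 5 were present, led by the NKG2D ligand Ulbp1 at 20.2 ± 9.74, the IgG receptor Fcgrt at 9.70 ± 3.26 and Hfe at 3.73 ± 1.37 TPM, while Cd1d2 and Azgp1 had no count.

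All 9 interferon-regulated activators reached 1 TPM in each library. Irf1, which drives class I genes after interferon, was at 622, 79.2 and 175 TPM, and replicate 1 was far above both others. Stat2 at 114 ± 23.5 and Irf2 at 105 ± 26.7 TPM were next, and Jak2 was lowest at 8 ± 2.23 TPM (SD, n = 3). Of 6 genes of costimulation and adhesion 5 were present. Icam1 was at 88.0, 13.5 and 25.7 TPM, Cd274 at 49.5 ± 21.6, Cd86 at 33.8 ± 16.7 and Icosl, the lowest, at 2.60 ± 1.68 TPM. In scaled TPM Irf1 was at 2604, 475 and 691 and Icam1 at 368, 81.1 and 101.6, the order of libraries that H2-K1 and B2m also had. H2-D1 had another order. Among the activators Irf8, Stat2 and Jak2 also had other orders, and the rest had that of Irf1. The starting RNA of the libraries falls in the order of Irf1 too, and what links these was not tested.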

How the data were processed

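Chromatin RNA was sequenced in 3 libraries of 1 group, numbered as in the labels. The deposited gene tables give expected counts and TPM, and the authors' transcript tables give the same per isoform, per the file headers. The authors scaled TPM so that every table sums to 1000000. Estimated counts and TPM of what is called here the second quantification stand in separate deposited tables per transcript. Reads were assigned on mm10 with GENCODE M21, per the deposited README text. Which aligner, counter and versions were used, and whether strand was, is not given in the sources used here.

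Members were found by symbol and transcript class. The members and all lists were chosen with earlier results of these data known, and the motifs after the promoters had been seen. With 1 group no test between conditions exists; values are given per library, with mean and SD, and counts beside those of all protein-coding genes. Named in full were members with a mean of at least 1 TPM, and of each pathway list the 3 highest genes and the lowest; values of other members, of Psmb9 and of Trim26, and of markers were added after they were seen. Logs are log2(TPM + 1), and differences of genes with low values are understated on it. Scaled TPM sums to 1000000 over protein-coding genes, in both quantifications. The share of each isoform class, in percent, was computed from the TPM in the authors' transcript table. Poisson intervals used the expected counts without rounding and cover counting error only.

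Every pair of libraries differed beyond sampling noise (chi-square per degree of freedom 98.6, 25.5 and 45.8), so none was taken for a repeated deposit of another; this does not show that they are separate cultures or animals. Transcripts and coding sequences came from GENCODE M21 and promoters from RefSeq. Coding sequences were aligned with mafft 7.526. Other steps used Python 3.11.15, pandas 2.3.3 and scipy 1.17.1; edgeR 4.0.16 and DESeq2 1.42.0, in R 4.3.3, gave scaling factors from rounded expected counts. The steps were tested on simulated data. 1 marker of the B cell list is not reported here.

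The alternatives were the second quantification, scaled TPM, the posterior mean TPM, other thresholds and pseudocounts, TMM and DESeq2 scaling, and leaving out each library.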

Additional observations from a re-analysis of the deposited data

How the results depend on the processing

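No paired analysis was possible because the 3 libraries form 1 group. The median over all 44 members was 1.49 TPM, and 3.67 in the second quantification, 6.76 in scaled TPM and 1.96 as posterior mean TPM, which are partly differences of unit. The difference between class I and class II of 5.67 was 5.01 in the second quantification and 4.80 with means over genes in place of medians. That between Nlrc5 and Ciita of 5.10 was 4.71 in the second quantification, 5.59 in scaled TPM and 5.69 with a pseudocount of 0.1. The count of 7 members at least 2-fold higher in the second quantification was 4 at 3-fold, 13 of 28 without rescaling and 4 of 21 with a mean of at least 5 TPM. The count of 8 members with a retained-intron share of at least 50% became 14 of 19 at 25%. For these 2 counts the share of all protein-coding genes is given at the main settings only, 22.9% and 45.9%. Counts at the other settings are therefore not read against a background. The differences between class I and class II and between Nlrc5 and Ciita kept their direction under these alternatives. Orders between single genes did not all do so: the second quantification turned that of H2-DMa and Cd74 on average, and that of B2m and Nlrc5 in replicate 1. The count of members at 1 TPM or more, 23, ranged from 18 to 26 over thresholds of 0.5 and 2 TPM, a minimum of 10 counts, the posterior mean, scaled TPM and the second quantification. Leaving out each library gave a difference of 5.50 to 5.81 between class I and class II and of 4.96 to 5.18 between Nlrc5 and Ciita, 23 members at 1 TPM or more each time, and 11 to 15 members with a spread above the background's median. Of the 23 named members, 20 were higher in unscaled TPM in the second quantification and 3 were lower, against 9 and 14 in scaled TPM; unscaled, 16 of them differed by more than 1 SD of the 3 libraries. H2-DMb1 rested on 21 to 30 counts per library and H2-Eb1 on 25 to 49, and the depth cannot order H2-Q6, H2-T10, Ciita and H2-DMb1.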

Other observations

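Genes with an H2- symbol but no protein-coding transcript class were left out of the members by the rule. There were 8 of them, and 5 had no count in any library. H2-K2, a transcribed pseudogene at chr17:33974659-33978827, next to H2-K1 and on the same strand, was at 49.9, 26.3 and 50.1 TPM in replicates 1, 2 and 3, from 822, 1063 and 966 counts. In each library of the gene table it stood above B2m and far below H2-K1. H2-Q5, a polymorphic pseudogene at chr17:35394126-35397800 in the Q block, was at 36.6, 12.6 and 21.99 TPM from 180, 136 and 131 counts, and its range overlapped that of H2-Q4. H2-T-ps had 0, 1 and 1 counts. In the second quantification H2-K2 was at 52.9 ± 22.8 and H2-Q5 at 37.2 ± 24.4 TPM (SD, n = 3), and B2m, at 92.1 ± 41.2 TPM, had the higher mean there.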
